A study of Homo sapiens with 9 samples.

Results

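RHOA, RHOB and RHOC are 3 closely related small GTPases, and RND3 is a relative that opposes them. The 4 genes were taken by name out of 58735 listed genes, and all 4 were among the 18319 genes with enough counts to be tested. Their transcripts were counted by sequencing of poly(A)-selected RNA from HEK293T, a line of human embryonic kidney origin with SV40 large T antigen. All cells, the controls included, carried 2 tagged proteins, PRPS1 with an HA tag and the dTAG degron, and PRPSAP1 with a V5 tag and the BromoTag degron. Of the 3 groups, 3 libraries came from cells given DMSO, 3 from cells given dTAG47 at 500 nM to deplete PRPS1, and 3 from cells given AGB1 at 500 nM to deplete PRPSAP1, each for 24 h. There was no group of untagged cells, and no label says whether the line is 1 clone or whether replicates were grown as separate cultures, so p-values measure only the spread between libraries, which may be technical. RHOB was chosen by its fold change and adjusted p against DMSO, which were already known to pass the threshold with both compounds, and RHOA, RHOC and RND3 were added as its relatives. The values of the 4 genes against DMSO are therefore given as a description, without a p-value.

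RHOA, RHOB and RHOC cycle between an active GTP-bound and an inactive GDP-bound state. Exchange factors load GTP, GTPase-activating proteins promote its hydrolysis, and GDP dissociation inhibitors hold prenylated GTPases in the cytosol. Active RHOA and RHOC sit mainly at the plasma membrane and drive actin stress fibres and myosin contraction through ROCK kinases and diaphanous formins. RHOB is also found on endosomes, can carry either a farnesyl or a geranylgeranyl lipid, and differs from its relatives in being a short-lived product of an early response gene that is induced by growth factors, ultraviolet light and other stresses. RND3 hydrolyses no GTP, stays in the GTP-bound form and counteracts RHOA signalling through ROCK1.

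RHOB (ENSG00000143878) lies on chromosome 2 of GRCh38, from 20447074 to 20449445 on the plus strand, and is annotated with 1 transcript of 1 exon. The 250 bases upstream of its start are shown because RHOB was the member that differed most between the groups, and because a CCAAT box of this promoter is known to bind the trimeric factor NF-Y. The sequence is from RefSeq (GRCh38.p14, chr2:20446824-20447073, plus strand), written 5′ to 3′, and capitals mark matches to CCAAT on either strand.
RHOB promoter: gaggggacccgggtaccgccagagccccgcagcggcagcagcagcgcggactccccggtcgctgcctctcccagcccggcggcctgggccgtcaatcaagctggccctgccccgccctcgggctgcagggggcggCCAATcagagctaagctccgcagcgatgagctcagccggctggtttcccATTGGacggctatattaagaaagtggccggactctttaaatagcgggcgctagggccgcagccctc
The first match, CCAAT, begins 115 bases before the start, and the second, ATTGG, which is CCAAT on the other strand, begins 66 bases before it. In the table's 300-base windows, which run from 250 bases before a start to 50 after it, 34.6% of 35116 windows held CCAAT on either strand at least once and 10.75% held it at least 2 times. The RHOB window held 2 matches, the RHOA window 1, each of the 3 RHOC windows 0 and each of the 2 overlapping RND3 windows 2. GGGCGG or its reverse complement CCGCCC, the GC box, occurred 2 times in the RHOB window and 4 times in the RHOA window, and in 44.95% of all windows at least once. TGACG or its reverse complement CGTCA, the core of the cyclic AMP response element, occurred 1 time in the RHOB window and in 24.55% of all windows. TATAAA was matched in 11.5% of windows and TGANTCA, the AP-1 motif, in 7.71%, and neither was matched in that of RHOB. These matches describe letters, not bound sites.

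The other members lie elsewhere. RHOA (ENSG00000067560) is on chromosome 3, from 49359145 to 49412998 on the minus strand, RHOC (ENSG00000155366) on chromosome 1, from 112701106 to 112707434 on the minus strand, and RND3 (ENSG00000115963) on chromosome 2, from 150468195 to 150539011 on the minus strand. None of the 75-base words in the longest transcript of RHOA, RHOB or RND3 occurred in a transcript of another gene (0% each), so at that length reads of the 3 genes can be told apart from each other and from RHOC. In RHOC 17.0% of the words occurred in AL603832.3, a same-strand gene that overlaps 433 of its exonic bases. AL603832.3 itself had a mean count of 0. The counter is not given, so it is not known whether reads in the shared bases were counted for RHOC or dropped. RHOA shares 214 exonic bases, 8.29% of its own, with the opposite-strand gene TCTA, which had a mean count of 1290 per library, and the strand setting of the counting is not given in the sources used here.

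Total counts ran from 27964128 to 44803380 per library. Counts of libraries within a group differed by more than sampling noise, with chi-square values of 5.88 to 14.9 per degree of freedom, and all 9 were kept as separate libraries. Of the marker genes checked, the epithelial keratins KRT8 and KRT18 stood at 25.8 to 35.4 and 41.7 to 59.5 CPM (counts per 1000000 counts of the library), with the neurofilament NEFM, which HEK293 cells are known to express, at 166 to 216 CPM. The epithelial adhesion genes EPCAM and CDH1 were lower, at 1.11 to 3.23 and 6.28 to 9.06 CPM, and the mesenchymal genes VIM and CDH2 stood at 337 to 382 and 65.1 to 80.02 CPM. Leukocyte PTPRC and erythroid HBB had 1 count each in all 9 libraries together, while the fibroblast collagen COL1A1 was present at 22.5 to 32.3 CPM. PRPS1 transcripts were at 103 ± 3.77 CPM in DMSO and 109.9 ± 3.49 with dTAG47, and PRPSAP1 transcripts at 29.4 ± 6.64 in DMSO and 29.1 ± 1.67 with AGB1 (SD, n = 3), which does not check the depletion, since the compounds act on the proteins. The libraries differed in how counts followed GC content. Across 11436 genes, which are not independent replicates, Spearman's rank correlation between a gene's deviation from its mean and its GC content was −0.378 in DMSO 1, −0.280 in DMSO 2, 0.271 in DMSO 3, 0.623 in dTAG47 1 and −0.329 in dTAG47 2, and between −0.0269 and 0.0497 in dTAG47 3 and the AGB1 libraries.

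RHOB transcripts were higher with both compounds than in DMSO. In the DMSO libraries 1 to 3, RHOB stood at 188, 184 and 218 CPM, with library sizes scaled by the trimmed mean of M-values (TMM). It reached 276, 236 and 239 CPM in the dTAG47 libraries and 257, 249 and 246 CPM in the AGB1 libraries, in the same order. All 6 treated libraries lay above all 3 DMSO libraries, a pattern that 2.11% of the tested genes showed, while 2.20% showed the opposite. Taken singly, dTAG47 libraries lay above all DMSO libraries in 5.80% of tested genes and below them in 5.82% (11.6% either way), and AGB1 libraries in 6.56% and 6.75% (13.3% either way). RHOB averaged 197 ± 18.3 CPM (SD, n = 3) over the DMSO libraries, 250.45 ± 22.5 over the dTAG47 libraries and 250.7 ± 5.50 over the AGB1 libraries. The fitted log2 fold change against DMSO was 0.35 (SE 0.06) with dTAG47, a 1.27-fold difference, and 0.35 (SE 0.06) with AGB1, also 1.27-fold. Both comparisons use the same 3 DMSO libraries, so they are not independent of each other.

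**Figure D1:**
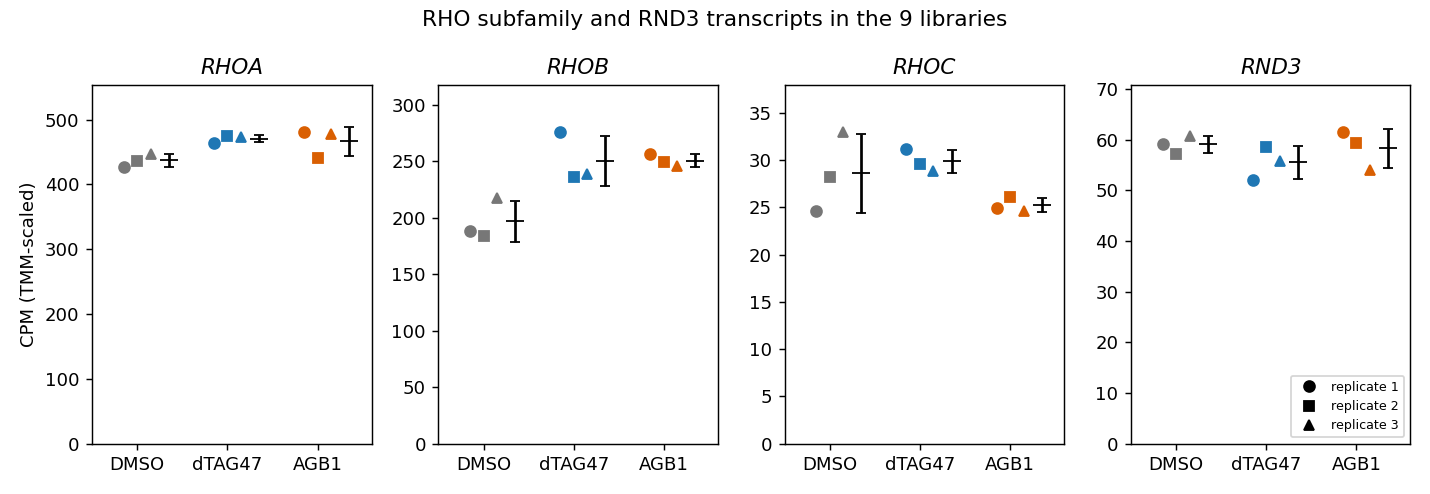
CPM (TMM-scaled, y axis from 0) of RHOA, RHOB, RHOC and RND3 in each library by group; symbols give the replicate number, and the bar beside them is the mean ± SD of 3 libraries. RHOB in the 6 treated libraries lies at 236 CPM or more, above the highest DMSO library at 218 CPM.

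Of the 4 members, RHOB alone was past the adjusted threshold of 0.05 in edgeR's quasi-likelihood test against DMSO, with each compound, and this call is what chose it. The call was reached by 0.0600% of tested genes with dTAG47 (0.0328% higher, 0.0273% lower) and by 0.104% with AGB1 (0.0546% higher, 0.0491% lower). With dTAG47 it ended without DMSO 1 (log2 fold change 0.32), without DMSO 2 (0.30), without dTAG47 1 (0.27) and in a fit of the dTAG47 and DMSO libraries alone (0.35). With AGB1 it ended without DMSO 1 (0.32), DMSO 2 (0.30), AGB1 1 (0.33), AGB1 2 (0.35) or AGB1 3 (0.36). The log2 fold change ranged from 0.27 to 0.43 with dTAG47 and from 0.30 to 0.43 with AGB1 over every library left out in turn. These fits reuse the libraries by which RHOB was chosen, so they give no independent support.

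The libraries in which RHOB was highest in DMSO and in dTAG47 were also set apart by their GC trend. The longest transcript of RHOB is 57.3% GC. Its highest library within DMSO was DMSO 3 and its highest within dTAG47 was dTAG47 1, which were also those with the steepest positive GC trend in their groups. Within dTAG47 the order of all 3 libraries was the same for RHOB and for the GC correlation. Within DMSO and AGB1 the orders differed. RHOB was higher in DMSO 1 than in DMSO 2, whose GC correlation was the higher. Within AGB1 it was lowest in AGB1 3, which had the highest GC correlation of that group. The part of the GC trend in the spread of RHOB was not tested. In the 3 AGB1 libraries, where that trend was near 0, its coefficient of variation was 2.20%, against 9.31% in DMSO and 8.97% with dTAG47. With the GC trend removed from every library the log2 fold change was 0.31 (SE 0.05) with dTAG47 and 0.34 (SE 0.05) with AGB1.

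**Figure D2:**
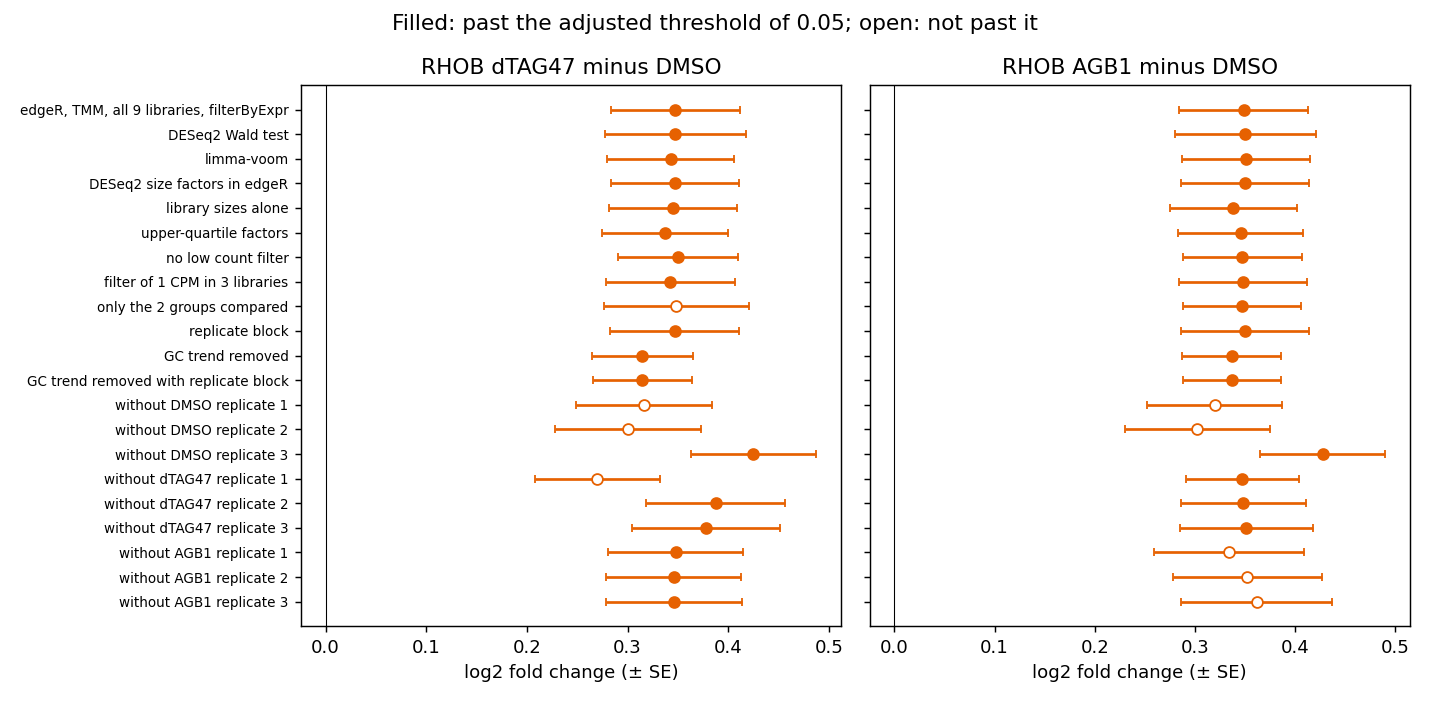
Log2 fold change of RHOB against DMSO (x axis, ± SE) with dTAG47 (left) and AGB1 (right) under each setting on the y axis; filled points were past the adjusted threshold of 0.05 and open points were not. All values lie between 0.27 and 0.43.

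Between the 2 compounds RHOB was at nearly the same level. The log2 difference, dTAG47 minus AGB1, was −0.0017 with a 95% interval of −0.13 to 0.13 (edgeR adjusted p = 0.999). A difference inside that interval is not excluded by these libraries. The interval is for 1 gene without adjustment, so it is not a limit of detection. No gene of the 18319 was past the threshold in this comparison (0%), which edgeR, DESeq2 and limma shared, and 736 genes had an unadjusted p under 0.05 in edgeR.

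RHOA, the most abundant of the 4, differed less. RHOA levels were 427, 437 and 447 CPM in DMSO 1 to 3. They were 464, 474 and 474 CPM in the dTAG47 libraries and 481, 440 and 477 CPM in the AGB1 libraries. The dTAG47 libraries lay above all DMSO libraries, as did those of 5.80% of tested genes, whereas AGB1 2 lay inside the DMSO range. The log2 fold change was 0.11 (SE 0.05) with dTAG47 and 0.09 (SE 0.05) with AGB1, and neither was past the threshold. dTAG47 minus AGB1 was 0.013 (95% interval −0.09 to 0.11, edgeR adjusted p = 0.999).

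RHOC, the least abundant of the 4, stood at 24.6, 28.2 and 33.0 CPM in DMSO 1 to 3. The dTAG47 libraries had 31.2, 29.6 and 28.8 CPM and the AGB1 libraries 24.99, 26.1 and 24.6 CPM. Its DMSO libraries spanned the range of both other groups, with a coefficient of variation of 14.8%, against 3.96% with dTAG47 and 2.94% with AGB1. Its log2 fold change against DMSO was 0.06 (SE 0.10) with dTAG47 and −0.18 (SE 0.10) with AGB1, neither past the threshold. Without DMSO 1 the first of these was −0.035, and without DMSO 3 they were 0.18 and −0.066. RHOC is as GC-rich as RHOB, at 57.7%, and DMSO 3 was its highest DMSO library. Within dTAG47, RHOC was higher in dTAG47 2 than in dTAG47 3, whose GC correlation was the higher. With the GC trend removed, the RHOC log2 fold change was 0.03 with dTAG47 and −0.19 with AGB1. The part of the GC trend in the spread of RHOC was not tested.

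RHOC was also the member with the largest difference between the compounds. All 3 dTAG47 libraries lay above all 3 AGB1 libraries, as they did in 5.35% of tested genes, with 5.10% the other way (10.5% in all). The log2 difference, dTAG47 minus AGB1, was 0.24 (SE 0.10, 95% interval 0.03 to 0.45), with an unadjusted p of 0.0240 in edgeR's test across all genes and an adjusted p of 0.999, so it did not pass. It stayed between 0.21 and 0.27 with each library left out in turn and was 0.23 with the GC trend removed. The summed level of the markers of other cell types, PTPRC, PECAM1, COL1A1, ALB and HBB, which is almost all COL1A1, also lay apart between these groups, at 26.2 to 32.5 CPM with dTAG47 and 22.7 to 25.6 CPM with AGB1, beside 25.02 to 30.9 CPM in DMSO. Its part in the differences between the compounds was not tested.

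RND3, the antagonist, overlapped between all 3 groups. RND3 levels were 59.2, 57.3 and 60.7 CPM in DMSO 1 to 3. The dTAG47 libraries had 52.1, 58.6 and 55.8 CPM and the AGB1 libraries 61.6, 59.3 and 54.0 CPM. The log2 fold change was −0.09 (SE 0.08) with dTAG47 and −0.019 (SE 0.08) with AGB1, neither past the threshold. dTAG47 minus AGB1 was −0.07 (95% interval −0.23 to 0.09, edgeR adjusted p = 0.999). RND3 has the lowest GC content of the 4, 38.7%, and its lowest library was dTAG47 1, the one with the steepest GC trend. Within DMSO, however, RND3 was highest in DMSO 3, whose GC correlation was positive (0.271). The part of the GC trend in the spread of RND3 was not tested. With the trend removed the log2 fold changes of RND3 were −0.043 with dTAG47 and 0.011 with AGB1.

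**Figure D3:**
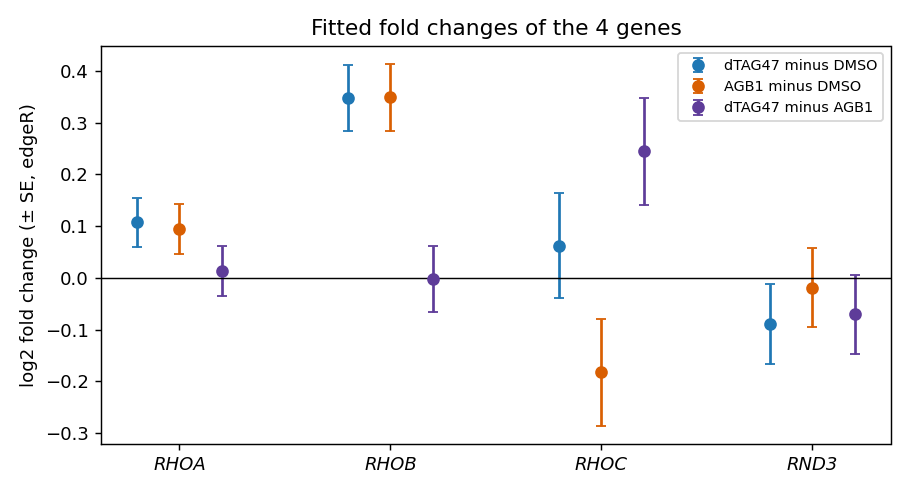
Fitted log2 fold change (y axis, ± SE from the edgeR model of all 9 libraries) of the 4 genes for each compound against DMSO and for the compounds against each other. RHOB lies at 0.35 against DMSO with both compounds and near 0 between them, and RHOC has the largest difference between the compounds, 0.24.

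Per kilobase of exonic sequence the 4 genes held the same order in every group. In RPKM, the CPM per kilobase, DMSO levels were 169 ± 4.02 for RHOA, 83.0 ± 7.72 for RHOB, 16.4 ± 0.482 for RND3 and 7.10 ± 1.05 for RHOC (SD, n = 3). The ranges of neighbours in this order did not overlap in any group. Levels compared between genes, here and below, depend on the gene length used, which counts all annotated exons. RAC1, the GTPase of lamellipodia, had a level near that of RHOB, and the order of RHOB and RAC1 differed between the groups. In DMSO RAC1 was at 90.0 ± 0.470 RPKM, inside the RHOB range of 77.7 to 91.8. With dTAG47 RHOB was at 106 ± 9.47 and RAC1 at 83.2 ± 1.56 RPKM, and with AGB1 RHOB was at 106 ± 2.32 and RAC1 at 89.4 ± 2.79 RPKM, with no overlap in either group.

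Within a library, the share of RHOB among RHOA, RHOB and RHOC does not depend on the scaling of libraries. It does depend on the gene length used, which counts all annotated exons. That length is 2372 bases for RHOB, the same as its only transcript, 2582 for RHOA and 4028 for RHOC. The longest transcripts of RHOA and RHOC are shorter, at 2031 and 2199 bases, and shares on those lengths were not computed. RHOB made up 31.7%, 30.6% and 33.6% of the summed RPKM of the 3 genes in DMSO 1 to 3. The dTAG47 libraries had 38.3%, 34.2% and 34.6%, and the AGB1 libraries 36.0%, 37.3% and 35.2%. The lowest treated library, dTAG47 2, was thus 34.2% against 33.6% in DMSO 3, a narrow gap. The mean share was 32.0% ± 1.52 (SD, n = 3) over the DMSO libraries, 35.7% ± 2.26 over the dTAG47 libraries and 36.1% ± 1.04 over the AGB1 libraries, and the RHOC share was 2.73% ± 0.282, 2.51% ± 0.0489 and 2.14% ± 0.130. The summed level of the 3 genes was 259 ± 12.2 RPKM in DMSO, 295 ± 7.55 with dTAG47 and 293 ± 9.52 with AGB1. In such bulk samples more RNA per cell cannot be told apart from more cells that express a gene.

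**Figure D4:**
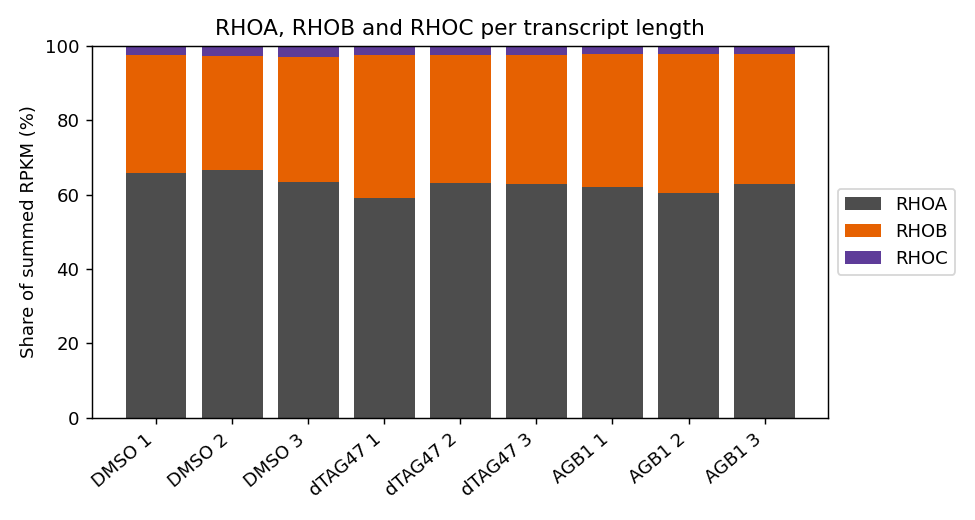
Share of the summed RPKM (y axis, in percent) taken by RHOA, RHOB and RHOC in each of the 9 libraries. The RHOB share runs from 30.6% to 33.6% in DMSO and from 34.2% to 38.3% with the compounds.

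Genes that regulate or follow these GTPases were examined in 9 lists of 127 genes by role, of which 120 were tested. None of the 120 passed against DMSO with dTAG47 or with AGB1 in edgeR's test. An unadjusted p under 0.05 was found for 17 of them (14.2%) with each compound, where 7.28% and 7.76% of all tested genes had one. DESeq2 called 1 of them with dTAG47, TNFAIP1, and 2 with AGB1, CFL1 and RND2, where it called 0.257% and 0.591% of all genes it gave an adjusted p, and limma called 0. The median log2 fold change over the 120 genes was 0.0050 with dTAG47 and 0.0016 with AGB1, beside −0.00097 and −0.00092 over all tested genes. The lists were chosen with earlier results of these data known, and both comparisons use the same DMSO libraries. Genes of the lists were not matched to all tested genes in level or gene type. Shares of genes with an unadjusted p under 0.05, here and below, are therefore a description and give no independent support.

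Of GTPases named from the lists, RAC1 was at −0.11 on the log2 scale (SE 0.05, edgeR adjusted p = 0.635) with dTAG47 and −0.0084 with AGB1. RAC3, a RAC paralogue, was at 0.14 (SE 0.07) and 0.04. RND2, a paralogue of RND3, was at 29.4 ± 2.44 CPM in DMSO and 22.3 ± 2.34 with AGB1 (SD, n = 3), which gave a log2 value of −0.40 (SE 0.10) with an edgeR adjusted p of 0.185, and had −0.12 (SE 0.10) with dTAG47.

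Of the regulators that switch these GTPases on and off, 0 of 42 tested genes passed. Exchange factors were positive in 9 of 21 with each compound (median −0.0095 with dTAG47 and −0.037 with AGB1). ECT2, which activates RHOA at the cleavage furrow, was at −0.15 (SE 0.06) with dTAG47 and −0.18 (SE 0.06) with AGB1, with edgeR adjusted p-values of 0.591 and 0.366, and NET1, a nuclear RHOA exchange factor, was at −0.034 and 0.035. GTPase-activating proteins were positive in 11 of 19 with dTAG47 (median 0.018) and 9 of 19 with AGB1 (median −0.037). DLC1, which inactivates RHOA to RHOC, was at −0.27 (SE 0.09, edgeR adjusted p = 0.460) with dTAG47 and −0.24 (SE 0.09, adjusted p = 0.489) with AGB1. RACGAP1, which works with ECT2 in cytokinesis, was at 0.00085 and 0.0017, and ARHGAP11A, a mitotic GTPase-activating protein, at 0.08 and 0.04. Of the inhibitors of GDP dissociation, ARHGDIA was at 0.06 and 0.03, and ARHGDIG, at 11.6 ± 0.606 CPM in DMSO, at −0.10 and −0.29 (SE 0.14 with each).

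Downstream, effectors and actomyosin genes were positive in 10 of 21 with each compound (medians −0.0029 and −0.0041), and 0 passed in edgeR's test. CFL1, cofilin, the actin-severing protein kept inactive by the ROCK to LIM kinase branch, came closest, with a mean of 431 ± 25.7 CPM (SD, n = 3) in the DMSO libraries, 482 ± 25.6 in the dTAG47 libraries and 499 ± 16.2 in the AGB1 libraries. The log2 fold change of CFL1 was 0.16 (SE 0.05, edgeR adjusted p = 0.384) with dTAG47 and 0.21 (SE 0.05, adjusted p = 0.135) with AGB1. With AGB1 it was past the threshold in DESeq2 (0.21, DESeq2 adjusted p = 0.0337), and in edgeR without DMSO 3 (0.26) and with the GC trend removed (0.20). MYH9, a non-muscle myosin heavy chain, was at 0.12 (SE 0.05) and 0.05. A list of cytoskeletal targets of the actin-sensing pair MRTF and SRF also held SRF, MRTFA and MRTFB themselves. Its tested genes were positive in 13 of 18 with dTAG47 (median 0.05) and 12 of 18 with AGB1 (median 0.04). Of all tested genes, 49.7% were positive with each compound. In each comparison 6 of 18 had an unadjusted p under 0.05, beside 7.28% and 7.76% of all tested genes, and 0 passed in edgeR's test. The 6 included 1 gene with a negative value in each comparison, both named after their values were seen: FHL1, a LIM-domain protein, at −0.16 (SE 0.06) with dTAG47, and TPM1, an actin-binding tropomyosin, at −0.39 (SE 0.12) with AGB1. ACTB was at 0.13 (SE 0.04) and 0.09, ACTG1 at 0.10 and 0.12 (SE 0.04 each) and the actin crosslinker FLNA at 0.17 and 0.15 (SE 0.05 each), with edgeR adjusted p-values from 0.315 to 0.611. Reads shared with processed copies of the actin, cofilin and RAC1 genes were not examined.

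Genes that act on these GTPases after translation, or on the RHOB promoter, gave no call in edgeR's test, while DESeq2 called TNFAIP1 with dTAG47 (log2 fold change 0.26, DESeq2 adjusted p = 0.0200). Lipid attachment and carboxyl-terminal processing genes were positive in 3 of 11 with dTAG47 (median −0.019) and 6 of 11 with AGB1 (median 0.0038). In that list the methyltransferase ICMT was at 0.035 and 0.0038, the protease ZMPSTE24 at −0.019 and −0.0042, the prenyltransferase subunit FNTA at −0.11 and −0.06, and the chaperone-like exchange factor RAP1GDS1 at 0.0064 and 0.12. Ubiquitin factors were positive in 5 of 8 and 6 of 8 (medians 0.07 and 0.04). TNFAIP1, a substrate adaptor through which cullin 3 marks RHOA for degradation, had a mean of 59.0 ± 1.36 CPM (SD, n = 3) in the DMSO libraries, 70.8 ± 1.49 in the dTAG47 libraries and 67.9 ± 2.38 in the AGB1 libraries. For TNFAIP1 the log2 fold change was 0.26 (SE 0.07, edgeR adjusted p = 0.219) and 0.20 (SE 0.07, adjusted p = 0.378). RBX1, the RING subunit of cullin ligases, was at −0.05 and 0.02, and the F-box protein FBXL19 at 0.16 (SE 0.08) and 0.0087. NF-Y subunits and histone deacetylases were positive in 3 of 7 and 2 of 7. NFYC was at 0.15 (SE 0.08) and 0.08, HDAC1 at −0.05 and −0.09, and HDAC3 at 0.09 and 0.13 (SE 0.06), and none passed.

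The genes whose profile over the 9 libraries lay closest to that of RHOB were ADCK1, JUN, CCS, SLC25A20 and CHPF. Likeness was the root mean square difference of centred log2 CPM among 10838 protein-coding genes at 5 CPM or more, and the 9 libraries share their groups and their GC trend. The difference was 0.07 for ADCK1, a mitochondrial kinase-like protein, and 0.07 for JUN, an AP-1 subunit and early response gene, where the median over all genes was 0.21. For CCS, the copper chaperone of superoxide dismutase, it was 0.07, and for the carnitine carrier SLC25A20 and the chondroitin synthesis gene CHPF it was 0.08 each. JUN averaged 472 CPM in the DMSO libraries, 591 in the dTAG47 libraries and 570 in the AGB1 libraries, with log2 fold changes of 0.32 and 0.27. These genes were picked for a profile like that of RHOB, so their differences from DMSO follow from the choice and carry no test. The genes nearest RND3 were DEK, CNOT7, AASDHPPT, RFK and MTIF2, at differences of 0.032 to 0.036, where the median was 0.13. RND3 itself varied with an SD of 0.08 on the log2 scale, so these are genes of similarly little variation.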

How the data were processed

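RNA-seq counts of 9 HEK293T libraries were used. The authors deposited 1 table per library with raw counts for each gene. HISAT2, DESeq2 and the hg38 build are named per the submitters' processing notes. The sources used here give no tool version, counter or strand setting. Per the labels' protocols, messenger RNA was selected on poly-T beads and copied with random hexamers. Gene models matched GENCODE release 29 (GRCh38) in start, end and strand for 58735 of 58735 genes. Groups and replicate numbers came from the sample titles.

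Genes were kept by filterByExpr (18319), scaled by TMM and fitted in edgeR 4.0.16 (R 4.3.3) with a coefficient per group over all 9 libraries. Adjustment of glmQLFTest p-values (Benjamini-Hochberg) ran over all tested genes, with a threshold of 0.05. Standard errors are the absolute log2 fold change over the square root of F. RPKM is CPM per kilobase of the gene length in the files. A count of 3 corresponds to 0.0670 to 0.107 CPM, and the common biological coefficient of variation was 11.0%; limits from counts cover counting error only. The GC trend was removed per library by lowess (span 0.3) on the GC content of the longest transcript. The fit was tested on simulated data. The simulated counts had no GC trend between libraries, so that test does not cover this feature of the real libraries. Alternatives used DESeq2 1.42.0, limma 3.58.1, other scalings and filters, only the groups compared, the replicate number as a block, and each library left out. All 4 members had RefSeq promoter windows.

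The members and lists were chosen with earlier results of these data known. Named genes are the 4 members, in each list the 2 most abundant per length in DMSO and the one with the lowest p against DMSO per compound, and the 5 genes nearest RHOB and RND3 in profile; any list gene past the threshold would also have been named. Counts over 1 of the 9 lists are not reported here.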

Additional observations from a re-analysis of the deposited data

How the results depend on the processing

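RHOB kept its sign against DMSO under all 20 alternatives for each compound, and its call under 16 for dTAG47 and 15 for AGB1. The alternatives refit the libraries by which RHOB was chosen, so they describe dependence on the processing and give no independent support. With each library left out the log2 fold change ran from 0.27 to 0.43 with dTAG47 and from 0.30 to 0.43 with AGB1. A fit of the dTAG47 and DMSO libraries alone gave 0.35 and ended the call; this fit has fewer libraries, and otherwise the cause was not tested. The dTAG47 minus AGB1 difference of RHOB changed sign around 0, to 0.0066 on library sizes alone and 0.0024 without a count filter, and ran from −0.077 to 0.039 with libraries left out. Other values near 0 did the same: RHOA between the compounds (−0.027 to 0.034), RHOC with dTAG47 (−0.035 to 0.18) and RND3 with AGB1 (−0.058 to 0.033, 0.011 with the GC trend removed and 0.010 with that and the replicate block). Of the pathway genes, DESeq2 called 1 with dTAG47 and 2 with AGB1, and removal of the GC trend called 1 with AGB1, with or without the replicate block (0 to 1 with libraries left out); the cause was not tested.

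Over all genes, calls numbered 11 with dTAG47 and 19 with AGB1, against 47 and 81 by DESeq2, 43 and 67 without a count filter, and 21 and 48 with the GC trend removed. They numbered 16 and 47 with that and the block, 4 and 22 with only the groups compared, and 2 to 20 and 6 to 55 with libraries left out. Between the compounds 0 genes were called, 13 without a count filter, 1 without dTAG47 1 and 2 without AGB1 1. Leaving out a library leaves 2 in its group, and all groups share 1 estimate of the spread.

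No pairing by replicate number was seen. Deviations of same-numbered libraries correlated between −0.156 and 0.0715. The strongest correlations joined different numbers, DMSO 3 with dTAG47 1 (0.265) and DMSO 3 with dTAG47 2 (−0.251). The GC correlations of DMSO 3, dTAG47 1 and dTAG47 2 were 0.271, 0.623 and −0.329. The GC trend was left in these deviations, so the check cannot show whether replicates were handled in pairs. With the replicate block, calls numbered 10 and 17, and RHOB was at 0.35 with each compound. The lowest library count was 5913 for RHOB and 728 for RHOC; the effect of depth was not tested.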

Other observations

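Between the 2 compounds, 5 of the 120 pathway genes had an unadjusted p under 0.05 in edgeR's test (4.17%, where 4.02% of all tested genes had one), and none passed after adjustment (adjusted p = 0.999 each). They were named after their values were seen. On the log2 scale, dTAG47 minus AGB1, LIMK1, a kinase that inactivates cofilin, was at 0.23 (SE 0.08), RND2 at 0.28 (SE 0.10) and RHOQ, a relative of CDC42, at 0.21 (SE 0.08). CYR61, a secreted matricellular protein and target of MRTF and SRF, was at −0.23 (SE 0.08) and RAC1 at −0.10 (SE 0.05). The 5 genes lie in 3 of the 9 lists.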
